A study of Mus musculus with 9 samples.

Results

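The endoplasmic reticulum (ER) genes described here are 39 genes for protein folding in the ER and for the unfolded protein response, chosen by symbol from a fixed list and found in a count table of 55487 mouse genes. They were measured by sequencing of polyadenylated RNA in gastrocnemius, a calf muscle, of male C57BL/6 mice (C57BL/6J in the study's text), labelled wild-type in every group. The 4 Control libraries came from mice in normal cages, the 2 Unloading libraries from mice after 10 days of hindlimb unloading, in which suspension by the tail keeps weight off the hind legs, and the 3 Reloading libraries from mice that had walked freely again for 1 day. The mice of the Reloading group had been unloaded for as long as those of the Unloading group. Reloading against Unloading therefore covers the renewed load together with removal of the tail line, return to the home cage and 1 more day. Reloading against Control covers unloading and these steps together. The labels give no age and name no animals, so p-values measure the spread between these samples, which may be partly technical. The study's methods describe female mice, while the labels of all libraries say male.

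Proteins that are secreted, sit in a membrane or enter the sarcoplasmic reticulum are threaded into the ER through the Sec61 channel, folded there by chaperones, joined by disulfide bonds and given sugar chains whose trimming reports the state of folding. Proteins that do not fold are drawn back to the cytosol and degraded, a route called ER-associated degradation. When unfolded protein builds up, 3 sensors in the ER membrane (IRE1, encoded by Ern1, PERK, encoded by Eif2ak3, and ATF6) start the unfolded protein response, in which the transcription factors XBP1 and ATF6 raise genes for chaperones and degradation and PERK slows translation. In muscle fibres the ER is continuous with the sarcoplasmic reticulum, the calcium store that drives contraction.

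The promoter element most tied to this response is the ER stress element (ERSE), bound by ATF6 and XBP1 beside the factor NF-Y. It was searched for as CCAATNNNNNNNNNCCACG on both strands of RefSeq promoter windows of the mouse build GRCm38.p6, each from 250 bases before to 50 bases after a start site. Windows were found for 31 of the 39 genes and not for Atf6, Derl1, Hspa13, Hyou1, Manf, Sec61a1, Sil1 or Ssr2. The element was in the windows of 9 of these 31 genes, compared with 37 of all 27025 genes with a window (0.137%). The matches are shown with 10 bases on each side because the same letters recur in genes of different roles. All sequences run 5′ to 3′ along the gene, capitals mark the element, and on the opposite strand it reads as the reverse complement.
Hsp90b1 (chr10:86705628-86705666, minus strand): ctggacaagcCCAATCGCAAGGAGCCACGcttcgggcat
Hsp90b1 (chr10:86705523-86705561, minus strand): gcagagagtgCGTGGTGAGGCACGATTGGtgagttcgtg
Calr (chr8:84847065-84847103, minus strand): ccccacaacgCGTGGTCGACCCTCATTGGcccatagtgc
Canx (chr11:50325790-50325828, minus strand): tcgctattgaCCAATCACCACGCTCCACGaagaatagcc
Pdia6 (chr12:17266481-17266519, plus strand): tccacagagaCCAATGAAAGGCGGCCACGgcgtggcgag
Creld2 (chr15:88819510-88819548, plus strand): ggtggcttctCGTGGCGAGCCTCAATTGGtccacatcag
Dnajc3 (chr14:118937817-118937855, plus strand): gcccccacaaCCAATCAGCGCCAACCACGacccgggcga
Syvn1 (chr19:6046522-6046560, plus strand): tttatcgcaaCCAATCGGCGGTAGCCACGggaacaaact
Ero1b (chr13:12565672-12565710, plus strand): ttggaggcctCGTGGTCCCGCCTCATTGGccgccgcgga
Derl3 (chr10:75893232-75893270, plus strand): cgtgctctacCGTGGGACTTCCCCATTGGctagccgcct

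The elements began between 44 bases (Syvn1) and 212 bases (Hsp90b1) before the start site, and 5 of the 10 lay on the strand opposite to the gene. Hsp90b1 was the gene with 2 matches, and its whole window, chr10:86705395-86705694 on the minus strand, is printed for their spacing.
Hsp90b1: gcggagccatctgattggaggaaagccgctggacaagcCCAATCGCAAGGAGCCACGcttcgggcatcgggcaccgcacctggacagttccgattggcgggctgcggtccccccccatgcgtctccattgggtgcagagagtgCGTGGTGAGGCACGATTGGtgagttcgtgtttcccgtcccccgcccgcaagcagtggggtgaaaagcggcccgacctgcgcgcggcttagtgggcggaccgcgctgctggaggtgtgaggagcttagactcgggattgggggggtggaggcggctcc

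A related element, ERSE-II, searched for as ATTGGNCCACG on both strands, was in the windows of 2 of the 31 genes and of 12 of all 27025 genes (0.0444%).
Herpud1 (chr8:94386367-94386397, plus strand): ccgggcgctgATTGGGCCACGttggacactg
Dnajb11 (chr16:22857842-22857872, plus strand): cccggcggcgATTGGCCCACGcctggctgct

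The match of Herpud1 began 52 bases before the start site, and that of Dnajb11 lay after the start site. No ERSE-II match overlapped an ERSE match. The XBP1-bound letters TGACGTGG, present in 0.714% of genes, and the heat shock element GAANNTTCNNGAA, present in 0.662%, were in the windows of 0 of the 31 genes. These matches are letters in a window, and binding was not measured.

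The libraries held 9252443 to 19612101 read pairs in genes. Levels are given as counts per 1000000 read pairs (CPM), scaled between libraries with TMM factors (trimmed mean of M-values), and 1 read pair was worth 0.0546 to 0.113 CPM. TMM factors were 0.928 to 0.960 in Control and Unloading and 1.11 to 1.13 in Reloading. Scaling to library totals alone shifted the median gene by log2 0.27 in Reloading against Unloading and by 0.25 in Reloading against Control, in place of 0.03 and 0.01 with TMM, so every change involving Reloading is relative to TMM scaling. The 10 muscle fibre markers summed to 117396 to 184584 CPM per library, as the tissue label calls for. Control 2 and Reloading 1 stood apart by skin transcripts, with 1086 and 502 counts of the keratin Krt2 against at most 3 elsewhere, and results that rest on them are also given without them.

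Of the 39 genes, 38 passed the filter on low counts and were tested across all 14851 tested genes with edgeR's quasi-likelihood F-test, two-sided, with Benjamini-Hochberg adjustment and a threshold of 0.05. The 39th, Derl3, which serves ER-associated degradation, had 1, 0, 1 and 0 counts in Control, 4 and 1 in Unloading and 3, 4 and 3 in Reloading and was not tested because of these low counts. Gene positions are given in GRCm38.

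After 1 day of reloading, 24 of the 38 genes were higher than in Unloading and 1 was lower, and their median log2 change was 0.52. Among all tested genes 18.5% were higher and 19.0% were lower in this comparison, against 63.2% and 2.63% of these genes, and the median over all tested genes was 0.03. Against Control, 29 genes were higher and 1 was lower, with a median of 0.55, where 22.1% of all tested genes were higher and 21.3% were lower. Unloading against Control called 1 gene higher and 1 lower, with a median of 0.08, where 4.40% and 5.50% of all tested genes were called. Reloading against Unloading and Reloading against Control share the 3 Reloading libraries, so they are given side by side and are not separate evidence. Without Control 2 and Reloading 1, 23 genes were higher and 1 lower in Reloading than in Unloading, and 24 were higher and 0 lower than in Control, while neither call of Unloading against Control passed (adjusted p = 0.0646 for Ssr3 and 0.0619 for Sec61b).

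The summed level per length of the 39 genes, in TMM-scaled CPM per kilobase of exon (RPKM), stood at 454 ± 8.39 in Control (SD, n = 4), 483 ± 20.9 in Unloading (SD, n = 2) and 691 ± 57.3 in Reloading (SD, n = 3). Their share of all counts was 0.151% in Control, 0.163% in Unloading and 0.268% in Reloading. Reloading 1 was the highest of the 3 Reloading libraries for 29 of the 38 tested genes. Whole muscle was sampled, so more cells of a type and more RNA per cell cannot be told apart.

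In Reloading against Unloading, where 18.5% of all tested genes were higher and 19.0% lower, 9 of 10 macrophage markers were higher. The log2 changes of the 10 ran from -0.10 to 3.93, with a median of 0.74. Their summed level was 94.4 to 96.5 CPM in Unloading, 90.1 to 111 CPM in Control and 179 to 202 CPM in Reloading. Cd68, named after its values were seen, was at 3.05 ± 0.763 CPM in Unloading and 45.9 ± 3.99 CPM in Reloading. Endothelial markers were higher in 7 of 8, with sums of 160.2 to 161 CPM, 165 to 187 CPM and 278 to 339 CPM in Unloading, Control and Reloading. Of 10 fibroblast markers 5 were higher and 3 lower, and they summed to 1645 to 1732 CPM in Unloading and 1417 to 1680.1 CPM in Reloading. Of 6 smooth muscle markers 4 were higher and 1 lower, with a median log2 change of 1.24. These 6 were Myh11, Acta2, Tagln, Cnn1, Rgs5 and Des, with log2 changes from -0.29 to 2.54. Their sum, 5022 to 5086 CPM in Unloading and 4266 to 4794 CPM in Reloading, went the other way. A sum mostly follows its most abundant markers, so it does not describe the 6 as a set. Of 6 satellite cell markers 2 were higher, and of 10 muscle fibre markers 8 were lower, with sums of the latter of 167449 to 175309 CPM in Unloading and 117396 to 130555 CPM in Reloading. Of 4 tested markers of plasma cells, which hold much ER, Ighm was lower and no other passed the test, and the defining markers Jchain, Pou2af1 and Tnfrsf17 were at or near 0 in all libraries. Neutrophil markers summed to 0.214 to 5.75 CPM over all libraries. The part that these markers have in the rises of the ER genes was not tested.

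**Figure D1:**
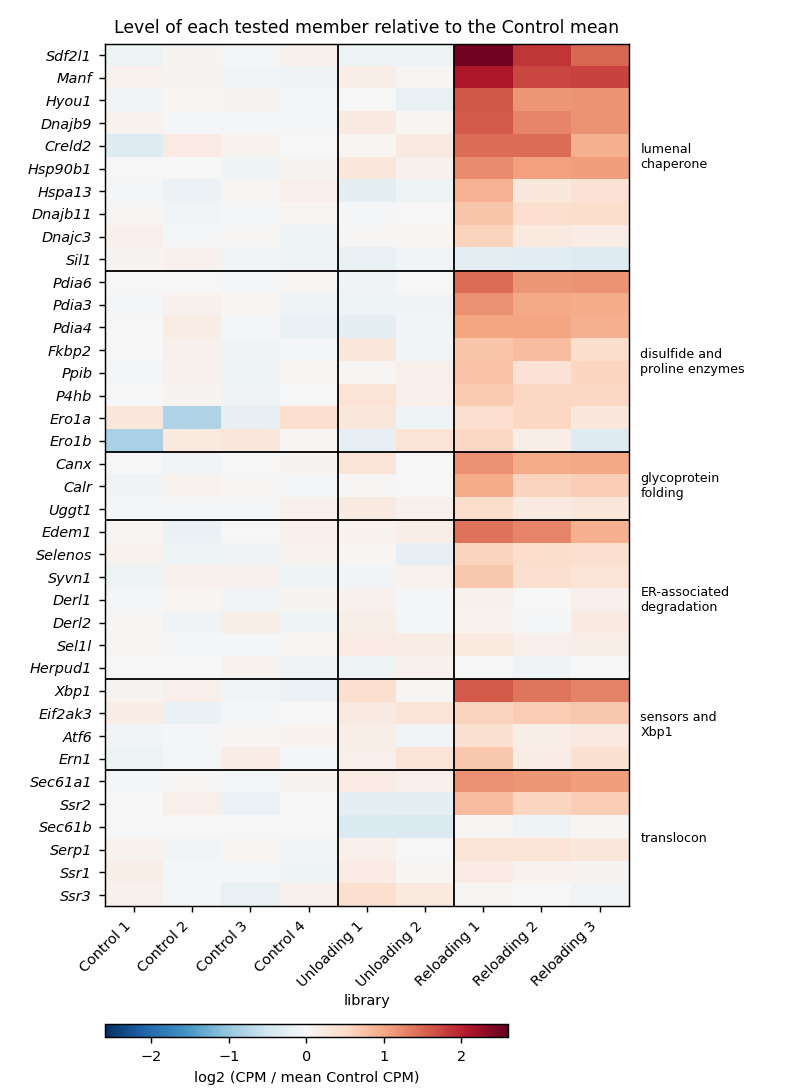
Heat map of the level of the 38 tested genes in each of the 9 libraries, as log2 of CPM over the mean Control CPM; red is higher and blue lower than the Control mean, black lines separate the roles and the 3 groups. The Reloading columns are red in most rows, while Sil1, Herpud1, Ssr3 and Sec61b are not.

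Among the chaperones and co-chaperones of the ER lumen, 9 of 10 genes were higher in Reloading than in Unloading, and the same number was higher than in Control. The shares of all tested genes that were higher were 18.5% and 22.1%. The median log2 fold change of the 10 was 1.04 against Unloading and 1.20 against Control, and 0.01 for Unloading against Control.

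Sdf2l1 (chr16:17130138-17132383, minus strand), a partner of the ER DNAJ proteins, had the largest rise of the 38 genes. It was at 2.03, 2.32, 2.14 and 2.40 CPM in Control, 2.02 and 2.02 CPM in Unloading, and 12.7, 8.03 and 6.23 CPM in Reloading. All Reloading libraries lay above all others, with the widest spread of the 3 groups. The log2 fold change was 2.14 (SE 0.27, adjusted p = 2.93e-05, edgeR) against Unloading, a 4.40-fold rise, and 2.00 (SE 0.22) against Control.

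Manf (chr9:106838312-106891979, minus strand) encodes a small protein that holds the chaperone BiP in its bound state and can be secreted. Its level was 9.25, 9.04, 8.22 and 8.06 CPM in Control, 9.73 and 8.85 CPM in Unloading and 37.1, 28.6 and 29.3 CPM in Reloading. The Reloading libraries lay far above the others, which overlapped each other. It was 3.41-fold higher than in Unloading (log2 1.77, SE 0.13, adjusted p = 2.52e-07) and 3.67-fold higher than in Control (log2 1.87, SE 0.11).

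Hyou1 (chr9:44379490-44392369, plus strand) encodes GRP170, a large HSP70-like chaperone that exchanges nucleotide on BiP. It was at 23.3, 25.4, 25.9 and 23.9 CPM in Control, 24.4 and 21.5 CPM in Unloading and 75.5, 54.3 and 55.6 CPM in Reloading. Every Reloading library was above every other, with Reloading 1 the highest. The log2 fold change was 1.43 (SE 0.13, adjusted p = 1.63e-06) against Unloading and 1.32 (SE 0.11) against Control.

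Dnajb9 (chr12:44205559-44210326, minus strand) encodes ERdj4, which brings misfolded proteins to BiP and holds IRE1 in check. Its CPM were 42.0, 38.3, 38.7 and 38.6 in Control, 46.1 and 40.7 in Unloading and 119, 95.5 and 88.1 in Reloading. The Reloading group lay above the others without overlap, by log2 1.22 (SE 0.11, adjusted p = 1.99e-06) against Unloading and 1.36 (SE 0.09) against Control.

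Creld2 (chr15:88819646-88826683, plus strand), an ER protein with disulfide-exchange activity, carried the ERSE shown above. It was at 3.61, 5.31, 4.86 and 4.55 CPM in Control, 4.72 and 5.35 CPM in Unloading and 12.5, 12.6 and 8.68 CPM in Reloading. Reloading lay above both other groups, 2.21-fold higher than Unloading (log2 1.15, SE 0.19, adjusted p = 0.00024) and 2.42-fold higher than Control.

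Hsp90b1 (chr10:86690209-86705509, minus strand) encodes GRP94, the HSP90 of the ER, and was the highest of these 10 genes per length at 19.1 RPKM in Control. In CPM it averaged 77.1 ± 3.87 in Control (SD, n = 4), 88.6 ± 7.77 in Unloading (SD, n = 2) and 169 ± 11.6 in Reloading (SD, n = 3). The rise against Unloading was 1.90-fold (log2 0.93, SE 0.09), with 15.7% of its exon bases shared with other annotated genes in a count that ignored strand. The other rises were smaller. Hspa13, an HSP70 relative, rose by a log2 of 0.72 against Unloading, Dnajb11, the DNAJ protein ERdj3, by 0.56, and Dnajc3, which restrains PERK, by 0.31. The rise of Dnajc3 against Unloading did not pass with DESeq2 (adjusted p = 0.056) or without any 1 of Unloading 1, Unloading 2 and Reloading 1 (adjusted p from 0.116 to 0.15). Without Control 2 and Reloading 1 the adjusted p of Dnajc3 was 0.165 against Unloading and 0.0889 against Control, and that of Hspa13 was 0.0765 against Control.

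Sil1, the other nucleotide exchange factor of BiP, was lower in Reloading than in Control. It was at 21.0, 21.8, 19.0 and 18.4 CPM in Control, 17.5 and 19.1 CPM in Unloading and 16.8, 16.6 and 15.9 CPM in Reloading. The Reloading libraries lay below all others, and the fall against Control passed the test (log2 -0.28, SE 0.09, adjusted p = 0.0204), while that against Unloading did not (log2 -0.16, adjusted p = 0.27). The fall against Control did not pass without Reloading 3 (adjusted p = 0.0735) or without Control 2 and Reloading 1 (adjusted p = 0.0787), with no filter on low counts (adjusted p = 0.0606) or with libraries scaled to their totals alone (log2 -0.04, adjusted p = 0.723).

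**Figure D2:**
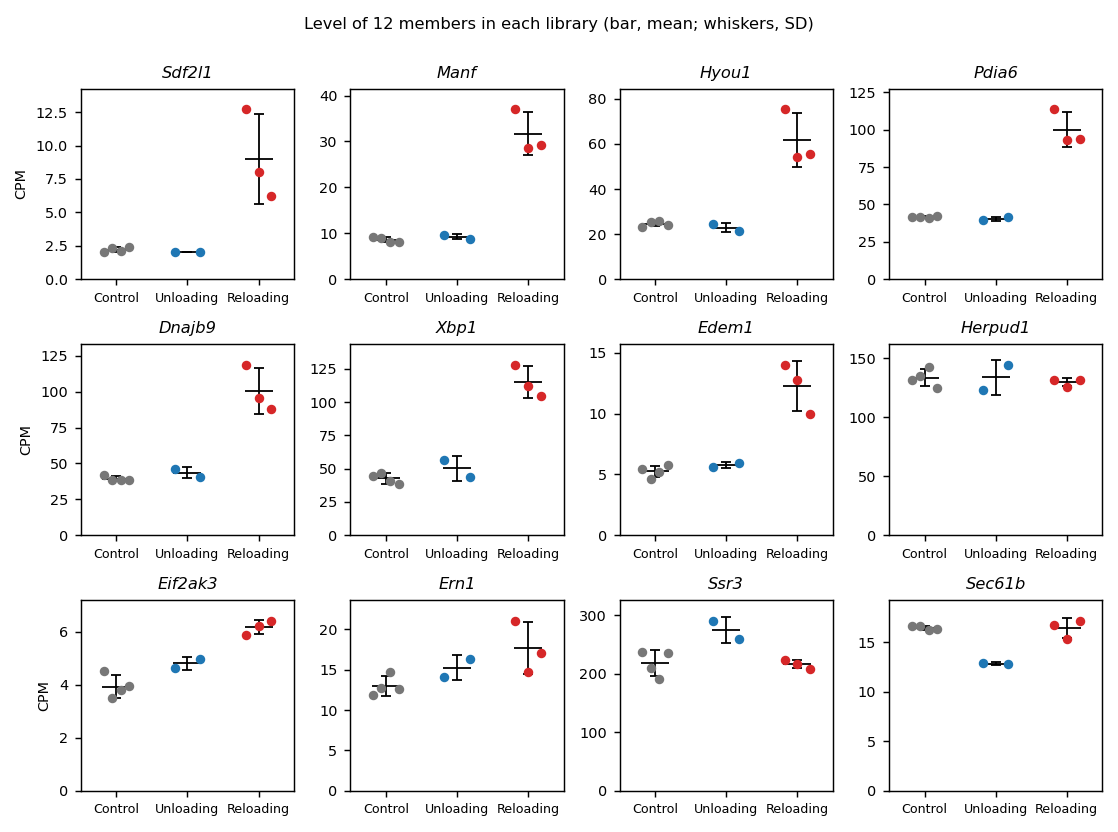
CPM of 12 of the genes in each library (points), with group means (horizontal bars) and SD (whiskers), for 4 Control, 2 Unloading and 3 Reloading libraries, on axes that start at 0. Sdf2l1, Manf, Hyou1, Pdia6, Dnajb9, Xbp1 and Edem1 are higher in every Reloading library than in any other, Herpud1 overlaps between the groups, and Ssr3 and Sec61b set Unloading apart.

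Of the 8 enzymes for disulfide bonds and proline isomers, 6 were higher in Reloading than in Unloading and 6 than in Control. This was 75% in each case, beside 18.5% and 22.1% of all tested genes. The 4 protein disulfide isomerases, which form and reshuffle disulfide bonds, all rose, while the 2 oxidases that recharge them, Ero1a and Ero1b, did not pass the test.

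Pdia6 (chr12:17266545-17284770, plus strand), an isomerase that also acts on the IRE1 sensor, was at 41.8, 41.6, 40.8 and 42.6 CPM in Control and 39.4 and 41.4 CPM in Unloading. In Reloading it was at 114, 92.9 and 93.5 CPM. The 6 Control and Unloading libraries lay within a narrow band and the 3 Reloading libraries lay well above it. The rise was 2.48-fold against Unloading (log2 1.31, SE 0.09, adjusted p = 1.68e-07) and 2.40-fold against Control.

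Pdia3 (chr2:121413775-121438687, plus strand), the isomerase that works with calnexin and calreticulin, was at 34.3, 38.4, 36.9 and 32.7 CPM in Control, 32.5 and 33.4 CPM in Unloading and 80.9, 70.1 and 69.9 CPM in Reloading. Pdia4 (chr6:47796141-47813430, minus strand), a larger isomerase, was at 9.92, 11.4, 9.65 and 8.84 CPM in Control, 8.31 and 9.51 CPM in Unloading and 20.2, 20.4 and 18.9 CPM in Reloading. In both genes Reloading lay above the other groups, which overlapped. The log2 fold changes against Unloading were 1.16 for Pdia3 (SE 0.09, adjusted p = 5.16e-07) and 1.15 for Pdia4 (SE 0.13, adjusted p = 8.99e-06).

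P4hb, the classical isomerase PDI and also a subunit of collagen prolyl 4-hydroxylase, had the highest mean level per length, at 57.3 ± 2.87 RPKM in Control (SD, n = 4), 67.8 ± 7.03 in Unloading (SD, n = 2) and 85.8 ± 4.70 in Reloading (SD, n = 3). In each group its libraries overlapped those of the next gene in the order. The log2 fold change of P4hb was 0.34 against Unloading (adjusted p = 0.00568), 0.58 against Control and 0.24 for Unloading against Control (adjusted p = 0.0675). Without Unloading 2 the value against Unloading was 0.23 (adjusted p = 0.106) and that for Unloading against Control was 0.34 (adjusted p = 0.0362). The proline isomerases Fkbp2 and Ppib rose by log2 0.56 and 0.48 against Unloading. Fkbp2 did not pass without Unloading 2 (adjusted p = 0.122) and Ppib did not pass without Unloading 1 (adjusted p = 0.0694), and 25.0% of the exon bases of Ppib were shared with its neighbour Snx22. Ero1a was at 5.04 ± 1.74, 5.39 ± 1.06 and 6.72 ± 0.607 CPM in Control, Unloading and Reloading, and Ero1b at 2.44 ± 0.755, 2.61 ± 0.720 and 2.74 ± 0.813 CPM (SD, n = 4, 2 and 3). The 95% interval of the log2 change against Unloading ran from -0.20 to 0.86 for Ero1a and from -0.62 to 0.69 for Ero1b, so changes as large as that of Dnajb11 could not be told from none. Against Control the change of Ero1a was 0.43 (adjusted p = 0.119), and 0.52 (adjusted p = 0.0462) with the number in the sample descriptions as a replicate block. It also passed with the title number as a block (adjusted p = 0.0286), with no filter on low counts (adjusted p = 0.0361), without Control 4 (adjusted p = 0.0357) and with libraries scaled to their totals alone (adjusted p = 0.0177).

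The 3 genes of the glycoprotein folding cycle were all higher in Reloading than in Control, and 2 were higher than in Unloading. The shares of all tested genes that were higher were 22.1% and 18.5%. Calr encodes calreticulin, a lumenal lectin chaperone that also stores calcium, and Canx encodes its membrane-bound relative calnexin. The mean CPM of Calr (± SD, n = 4, 2 and 3) was 135 ± 6.90 for Control, 136 ± 2.79 for Unloading and 225 ± 32.7 for Reloading. Canx averaged 75.1 ± 2.95, 84.7 ± 13.6 and 156 ± 12.4 CPM in the same groups. In both genes every Reloading library lay above every other, and the log2 fold changes against Unloading were 0.73 for Calr (SE 0.10, adjusted p = 7.23e-05) and 0.89 for Canx (SE 0.10, adjusted p = 9.96e-06). Uggt1, which marks unfolded glycoproteins for another round with these lectins, was higher than in Control by log2 0.33 (adjusted p = 0.00257) and did not pass against Unloading (log2 0.16, adjusted p = 0.178), where it passed with libraries scaled to their totals alone (log2 0.41, adjusted p = 0.00178).

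Of the 7 tested genes of ER-associated degradation, 3 were higher in Reloading than in Unloading and 4 were higher than in Control, and none was lower. The higher genes were 42.9% and 57.1%, beside 18.5% and 22.1% of all tested genes. Edem1 (chr6:108828641-108859356, plus strand), which picks out terminally misfolded glycoproteins, was at 5.41, 4.64, 5.22 and 5.75 CPM in Control, 5.61 and 5.96 CPM in Unloading and 14.0, 12.7 and 10.0 CPM in Reloading. The Reloading libraries stood above all others, by log2 1.07 against Unloading (SE 0.16, adjusted p = 0.000108) and 1.22 against Control (SE 0.14). Selenos, a selenoprotein of the retrotranslocation complex, and Syvn1, the ubiquitin ligase HRD1, rose by log2 0.56 and 0.49 against Unloading. Without Unloading 1 the adjusted p of Syvn1 was 0.0644.

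Herpud1, Sel1l, Derl1 and Derl2, partners of HRD1, did not pass the test against Unloading. Herpud1 (chr8:94386438-94395377, plus strand), the HRD1 cofactor with the ERSE-II shown above, was at 132, 135, 142 and 124 CPM in Control, 123 and 144 CPM in Unloading and 132, 126 and 132 CPM in Reloading. These groups overlapped, and the log2 change against Unloading was -0.04 with a 95% interval from -0.22 to 0.14. Sel1l, the HRD1 adaptor, averaged 61.0 ± 2.05 CPM in Control, 70.3 ± 0.642 in Unloading and 69.4 ± 2.75 in Reloading. Its log2 change was -0.02 against Unloading (95% interval -0.18 to 0.14) and 0.19 against Control (adjusted p = 0.0251). The latter did not pass without Control 2 and Reloading 1 (adjusted p = 0.192). Nor did it pass without any 1 of Control 2, Control 3 and Reloading 1 (adjusted p from 0.0769 to 0.102). With DESeq2 (adjusted p = 0.0742) and with no filter on low counts (adjusted p = 0.0839) it also did not pass. Derl1 and Derl2, derlins of the retrotranslocation channel, changed by log2 0.04 each against Unloading, with 95% intervals from -0.13 to 0.21 and from -0.23 to 0.31. With libraries scaled to their totals alone Herpud1 was higher in Reloading than in Control (log2 0.20) and Sel1l was higher than in Unloading (log2 0.23). Under that scaling Derl1 passed against Unloading (log2 0.29, adjusted p = 0.00946) and against Control (log2 0.32, adjusted p = 0.00112), and Derl2 passed against Control (log2 0.33, adjusted p = 0.0206).

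Of the 3 sensors and Xbp1, Xbp1 was higher in Reloading than in Unloading, while all 4 were higher than in Control. These were 25% and 100%, beside 18.5% and 22.1% of all tested genes. Xbp1 (chr11:5520659-5525893, plus strand) encodes the transcription factor whose messenger RNA is spliced by IRE1, and these counts sum its spliced and unspliced forms. Its level was 44.8, 46.9, 40.7 and 38.2 CPM in Control, 56.8 and 43.3 CPM in Unloading and 128, 112 and 105 CPM in Reloading. Each Reloading library was above every other, with a 2.30-fold rise against Unloading (log2 1.20, SE 0.12, adjusted p = 4.51e-06) and a log2 change of 1.43 (SE 0.10) against Control.

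Eif2ak3 (chr6:70844515-70905245, plus strand), the PERK gene, was at 4.51, 3.48, 3.79 and 3.95 CPM in Control, 4.64 and 4.97 CPM in Unloading and 5.88, 6.22 and 6.42 CPM in Reloading. The 3 groups did not overlap and their order was Control, Unloading, Reloading, but of the differences that between Reloading and Control (log2 0.66, SE 0.14, adjusted p = 0.00106) passed the test and those of Reloading against Unloading (log2 0.36, adjusted p = 0.079) and Unloading against Control (log2 0.30, adjusted p = 0.231) did not. Atf6 (chr1:170704674-170867771, minus strand) was at 37.4, 38.1, 40.1 and 41.9 CPM in Control, 44.2 and 37.4 CPM in Unloading and 51.8, 44.6 and 46.3 CPM in Reloading. Its Reloading libraries were the highest 3, though by little, and the log2 change was 0.27 against Control (SE 0.08, adjusted p = 0.0134) and 0.22 against Unloading (adjusted p = 0.0797). Without Unloading 1 the latter was 0.34 (adjusted p = 0.0374).

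Ern1 (chr11:106394650-106487852, minus strand), the IRE1 gene, was at 11.8, 12.7, 14.8 and 12.6 CPM in Control, 14.1 and 16.3 CPM in Unloading and 21.1, 14.8 and 17.1 CPM in Reloading. The groups overlapped, and the log2 change was 0.43 against Control (SE 0.12, adjusted p = 0.0112) and 0.20 against Unloading (adjusted p = 0.289). Without Reloading 1 the adjusted p against Control was 0.0761 for Ern1 and 0.0771 for Atf6, and without Control 2 and Reloading 1 it was 0.121 and 0.142. With libraries scaled to their totals alone all 3 sensors passed against Unloading, Eif2ak3 by log2 0.61 (adjusted p = 0.00566), Atf6 by 0.47 (adjusted p = 0.00125) and Ern1 by 0.45 (adjusted p = 0.0213).

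Of the 6 translocon genes, 3 were higher in Reloading than in Unloading and 1 was lower. These were 50% and 16.7%, beside 18.5% and 19.0% of all tested genes. Sec61a1, the pore subunit of the Sec61 channel, rose from 12.8 ± 0.545 CPM in Unloading (SD, n = 2) to 25.2 ± 0.971 CPM in Reloading (SD, n = 3), a log2 change of 0.98 (SE 0.10, adjusted p = 5.66e-06), with 11.4 ± 0.460 CPM in Control (SD, n = 4). Ssr2, a subunit of the TRAP complex that sits beside the channel, rose by log2 0.91 against Unloading and 0.67 against Control. Of its exon bases, 12.8% were shared with Rtraf-ps. Serp1, which associates with the translocon under stress, was higher than in Control (log2 0.34, adjusted p = 0.00585) and did not pass against Unloading (log2 0.27, adjusted p = 0.0532), where it passed with the number in the sample descriptions as a replicate block (log2 0.33, adjusted p = 0.0476). Ssr1, another TRAP subunit, changed by log2 -0.01 against Unloading, with a 95% interval from -0.20 to 0.19. Against Control it changed by log2 0.13 (adjusted p = 0.186), by 0.19 (adjusted p = 0.025) with the description number as a replicate block, and by 0.37 (adjusted p = 0.00159) with libraries scaled to their totals alone.

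Ssr3 and Sec61b were the genes called after unloading, in opposite directions. Ssr3 (chr3:65379655-65392623, minus strand), the gamma subunit of TRAP, was at 238, 209.8, 191 and 236 CPM in Control, 291 and 259 CPM in Unloading and 223, 217 and 209 CPM in Reloading. The Unloading libraries were the highest 2. It was higher in Unloading than in Control (log2 0.33, SE 0.09, adjusted p = 0.029) and lower in Reloading than in Unloading (log2 -0.35, SE 0.09, adjusted p = 0.00971), and without Unloading 1 neither passed (adjusted p = 0.333 and 0.104). The rise in Unloading also did not pass without Control 2 or without Control 3 (adjusted p = 0.0591 and 0.0755), and the fall was -0.10 with libraries scaled to their totals alone (adjusted p = 0.418) and -0.25 with the description number as a replicate block (adjusted p = 0.0559).

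Sec61b (chr4:47474658-47483242, plus strand), the beta subunit of the channel, was at 16.7, 16.7, 16.3 and 16.4 CPM in Control, 12.9 and 12.8 CPM in Unloading and 16.8, 15.3 and 17.2 CPM in Reloading. The Unloading libraries lay below all others. The fall in Unloading (log2 -0.36, SE 0.10, adjusted p = 0.0336) and the rise from Unloading to Reloading (log2 0.35, SE 0.10, adjusted p = 0.0146) passed the test, yet leaving out any 1 Control or Unloading library left the fall short of the threshold (adjusted p from 0.0516 to 0.221), and so did a DESeq2 test (adjusted p = 0.0858). The rise did not pass without Unloading 1 or without Unloading 2 (log2 0.36 and 0.34). With all libraries kept, it also did not pass with DESeq2 (adjusted p = 0.0675) or with no filter on low counts (adjusted p = 0.089). Against Control, Ssr3 and Sec61b changed by log2 -0.01 each in Reloading, with 95% intervals from -0.18 to 0.16 and from -0.19 to 0.18, and with libraries scaled to their totals alone both were higher (log2 0.23 each).

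**Figure D3:**
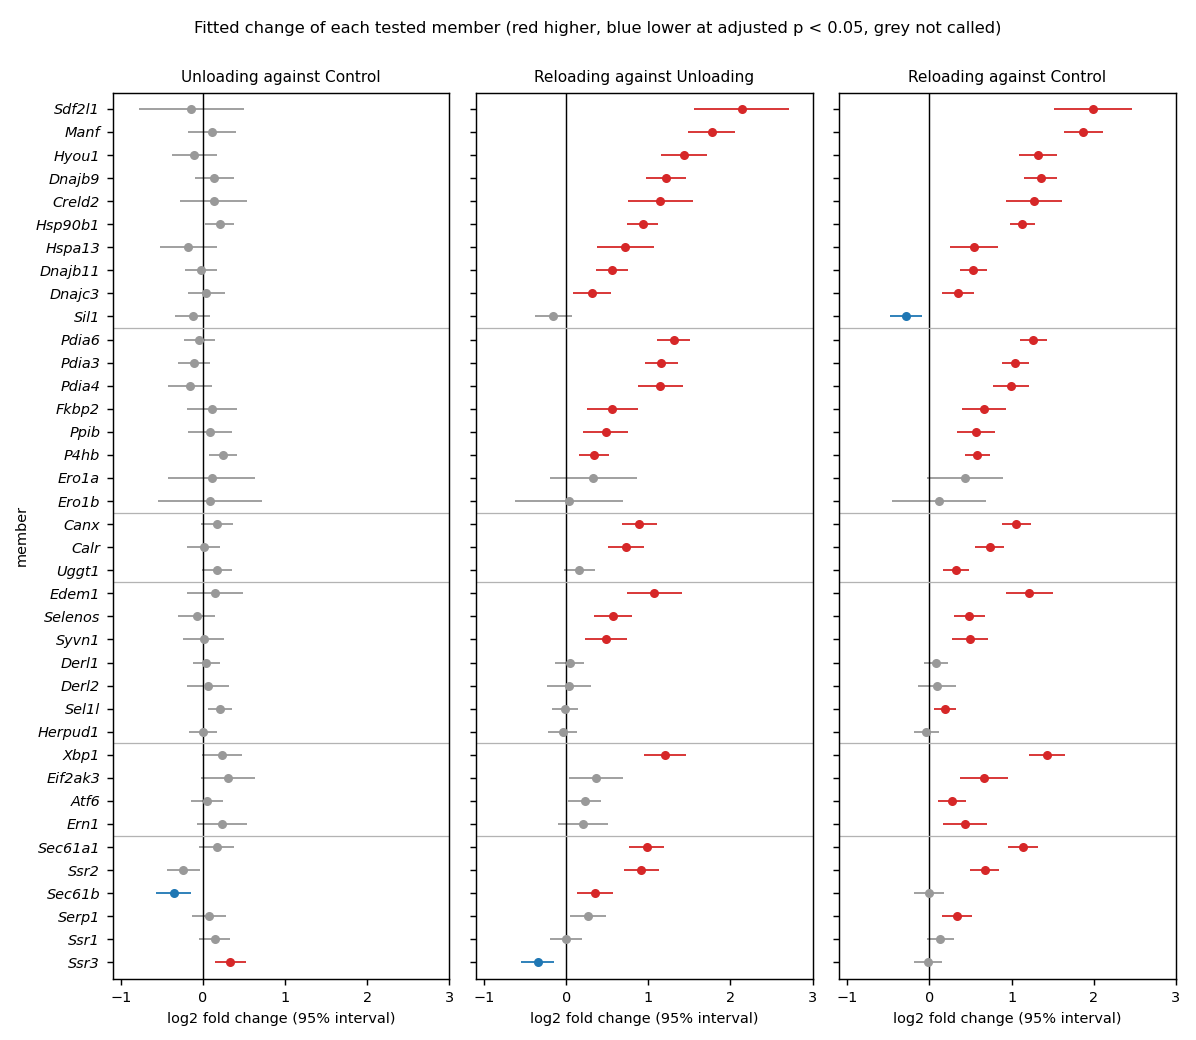
Fitted log2 fold change (points) with 95% interval (lines) of the 38 tested genes in the 3 comparisons, grouped by role from chaperones at the top to translocon genes at the bottom; red is higher, blue lower and grey not past an adjusted p of 0.05. The middle panel has 24 red points and 1 blue point (Ssr3), the right panel 29 red and 1 blue (Sil1), and the left panel 1 red (Ssr3) and 1 blue (Sec61b).

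Length here is the sum of all annotated exons of a gene, so the order of genes also depends on the annotation. Per length, 4 genes led in Control, and their levels were 57.3 RPKM for P4hb, 57.1 for Herpud1, 52.4 for Ssr3 and 46.9 for Calr. Each overlapped the next in the range of its Control libraries, and a gap followed to Derl1 at 19.9 and Hsp90b1 at 19.1 RPKM. The sensor Ern1 was at 1.59 RPKM, Edem1 at 0.814 and Eif2ak3 at 0.652 in Control. Of the 38 pairs of neighbours in the order, 28 overlapped in Control, 20 in Unloading and 23 in Reloading. In Reloading the order was P4hb at 85.8 and Calr at 78.0 RPKM, which overlapped, then Herpud1 at 55.6 and Ssr3 at 51.9 RPKM, and then Hsp90b1 at 41.8, Dnajb9 at 39.6, Xbp1 at 35.4 and Canx at 33.3 RPKM, each of which overlapped the next.

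**Figure D4:**
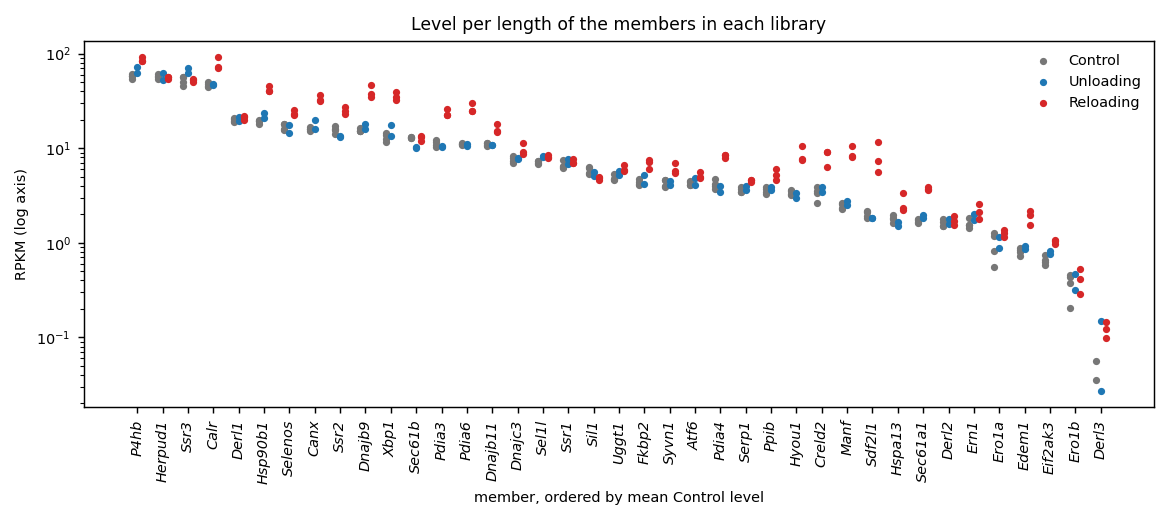
RPKM of each of the 39 genes in every library on a log axis, ordered by the mean Control level, with Control in grey, Unloading in blue and Reloading in red; Derl3 libraries with 0 counts cannot be drawn. P4hb, Herpud1, Ssr3 and Calr lie above the rest in Control, and the red points lie above the others for most genes below them.

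Among genes with an ERSE in the window, 7 of 8 tested were higher in Reloading than in Unloading, with a median log2 fold change of 0.81, and Ero1b was not. Among the 22 tested genes with a window without the element, 12 were higher and 1 was lower, with a median of 0.36, and this group held the genes with large rises Sdf2l1, Dnajb9 and Xbp1. Against Control, 7 of the 8 and 16 of the 22 were higher, with medians of 0.89 and 0.51. Among all tested genes 18.5% were higher in Reloading than in Unloading and 22.1% than in Control. The 8 genes with no window were in neither set, among them Manf and Hyou1 with large rises and Sil1 and Derl1 with none. The difference between these sets is a description of exact matches and was not tested.

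The other genes of ER folding and transport were described from 6 lists holding 129 symbols, of which 126 were matched and 125 tested. Of these 125, 59 were higher and 18 were lower in Reloading than in Unloading (47.2% and 14.4%, median log2 0.30). Among all tested genes 18.5% and 19.0% were called. In Reloading against Control, 66 were higher and 12 lower (52.8% and 9.6%, median 0.26), beside 22.1% and 21.3% of all tested genes. In Unloading against Control, 8 were higher and 1 lower (median 0.03). Without Control 2 and Reloading 1 the first of these counts were 52 and 12. Hspa5 (chr2:34771970-34777547, plus strand), which encodes BiP, the central HSP70 of the ER that the sensors and many of the co-chaperones above bind, was at 166, 170.4, 153 and 169 CPM in Control, 175 and 142 CPM in Unloading and 519, 415 and 406 CPM in Reloading. Reloading lay above the other groups without overlap, by log2 1.49 against Unloading (SE 0.12, adjusted p = 2.87e-07) and 1.44 against Control.

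Outside the degradation list, 48% to 60% of the tested genes of each of these lists were higher in Reloading than in Unloading. The lower shares were 6.67% to 15%, beside 18.5% higher and 19.0% lower among all tested genes. Among 25 other ER folding factors, 12 were higher and 3 lower in Reloading than in Unloading. The largest changes were those of Hspa5 and the proline isomerase Fkbp11 (log2 1.56, at 0.378 CPM in Unloading and 1.14 CPM in Reloading). Of 15 tested genes for collagen folding, 9 were higher and 1 was lower. The collagen chaperone Serpinh1 was at 25.0 ± 4.79 CPM in Unloading and 101 ± 18.3 CPM in Reloading (log2 2.00, SE 0.17, adjusted p = 7.87e-07), with 36.0 ± 6.21 CPM in Control, and the prolyl 3-hydroxylase P3h2 rose by log2 1.75. For the 25 other genes of the translocon, signal peptidase and glycan transfer, 13 were higher and 3 lower, led by Ostc (log2 0.93) and Ddost (log2 0.91), both of the oligosaccharyltransferase, and against Control Stt3a, its catalytic subunit, rose by log2 1.03. Of 21 genes for ER exit and retrieval, 11 were higher and 3 lower, led by Kdelr3, a receptor that returns escaped ER proteins (log2 1.36), and Sec24d, a cargo adaptor of COPII vesicles (log2 1.21). The largest fall of that list was that of Sar1b, the GTPase that starts COPII coats (log2 -0.88, adjusted p = 6.67e-07), named after its values were seen, and the summed level of the list was 1773 to 1794 CPM in Unloading and 1589 to 1633 CPM in Reloading.

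The 19 other genes of ER-associated degradation gave 3 higher and 5 lower (15.8% and 26.3%, beside 18.5% and 19.0% of all tested genes), with a median of 0.01. The larger changes were Ubxn4, an ER anchor of p97 (log2 0.79), and Ngly1, which strips glycans from extracted proteins (log2 -0.57, adjusted p = 0.000109). Against Control, 8 of the 19 were higher and 3 lower (42.1% and 15.8%, beside 22.1% and 21.3% of all tested genes). Ubxn4 was at log2 0.97 and Edem2, a mannosidase relative of Edem1, at 0.45 (adjusted p = 0.0462, edgeR). For Edem2 the groups overlapped, with 8.86, 6.44 and 5.10 CPM in Reloading and 4.51 to 5.49 CPM in Control.

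Of 20 other regulators of the response, 11 were higher and 3 were lower in Reloading than in Unloading. Trib3, a pseudokinase downstream of ATF4, rose by log2 1.67, being at 0.675 CPM in Unloading and 2.14 CPM in Reloading, and Ppp1r15a, the phosphatase subunit GADD34 that reverses PERK signalling, rose by log2 1.15 from 30.2 ± 1.49 to 67.2 ± 4.92 CPM (SE 0.10, adjusted p = 6.04e-07). Against Control these 2 genes rose by log2 0.87 and 1.18.

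After unloading, 6.4% of the 125 genes were higher and 0.8% lower than in Control, beside 4.40% and 5.50% of all tested genes. Crebrf, a regulator of CREB3 (log2 0.53), Mbtps1, the site-1 protease that cuts ATF6 (log2 0.33), Sec63 (log2 0.45) and Sec62 (log2 0.42), which assist the Sec61 channel, Os9, a lectin of the HRD1 complex (log2 0.43), Ngly1 (log2 0.29), Sec24a (log2 0.37) and, named after its values were seen, Nploc4, a p97 cofactor (log2 0.29, adjusted p = 0.0425), were higher than in Control, and Txndc12, a thioredoxin-like ER protein, was lower (log2 -0.45, adjusted p = 0.0437). Without Unloading 1, 0 of the 125 were higher and 0 were lower.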

How the data were processed

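Reads were aligned by the authors with STAR 2.7.3a to GRCm38.p6 and read pairs counted per gene with featureCounts 2.0.3, unstranded, on Ensembl 102. Raw counts per gene were deposited for 9 libraries, with summed exon lengths. Of the authors' DESeq2 tables (mean, shrunken log2 fold change, SE and p-values), the symbols alone were used. The methods describe single reads, the labels paired-end.

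The counts were fitted in R 4.3.3 with edgeR 4.0.16 (filterByExpr, minimum count 10 and total 15; TMM; quasi-likelihood F-test; group as the only term; all 9 libraries in 1 fit), and adjusted by Benjamini-Hochberg over 14851 genes within each comparison. SE and 95% intervals were derived from the F statistic. RPKM is TMM-scaled CPM per kilobase. The procedure was tested on simulated data. DESeq2 1.42.0, other scalings, filters and fits, replicate blocks and left-out libraries were tried.

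The members and the lists were chosen with earlier results of these data known. Values in every library were given for the sensors, Xbp1 and the called members with the 8 largest rises and falls in each comparison, and of other lists Hspa5 and the 2 largest called changes per comparison. Herpud1, Cd68, Sar1b and Nploc4 were singled out after their values were seen.

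The labels do not say what the replicate numbers of the titles mark, and deviations of same-numbered libraries correlated with r from -0.201 to 0.0752. Numbers in the sample descriptions, which differ for Reloading, gave r = 0.361, 0.143 and 0.155 for the 3 pairs of Control and Reloading, above 0.1 in each, the largest between Control 2 and Reloading 1, which share skin transcripts. With that number as a block, Reloading against Control gave 31 members higher and 1 lower, with Ssr1 (log2 0.19) and Ero1a (log2 0.52) added.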

Additional observations from a re-analysis of the deposited data

Results flagged for a closer look

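Of 39 values tested in the 4 Control libraries (the 38 tested members and their summed level), 2 had a library far from the other 3, by a gap larger than Dixon's 95% critical value for 4 samples, which chance gives in about 1 of 20 groups. Dnajb9 was at 42.0 CPM in Control 1 and at 38.3 to 38.7 CPM in the other Control libraries, a gap of 0.883 of the range. Uggt1 was at 68.2 CPM in Control 4 and at 59.9 to 60.4 CPM in the others, a gap of 0.944 of the range. Without Control 1 for Dnajb9 and without Control 4 for Uggt1, the calls of these genes in the 3 comparisons were as before.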

How the results depend on the processing

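Of 2052 values of single members under the alternatives, 1981 kept their call or their lack of one, 60 of them uncalled values that changed sign. A call was lost by 46 and gained with the same sign by 21. Another 4, uncalled and near 0 in the main fit, gained a call with the other sign. All 4 did so with libraries scaled to their totals, which moved the median of all genes. They were Sel1l against Unloading (0.23), and Herpud1 (0.20), Sec61b (0.23) and Ssr3 (0.23) in Reloading against Control. That scaling gave 31 members higher and 0 lower in Reloading against Unloading (median 0.77) with 5 other ER genes lower, and 36 higher and 0 lower in Reloading against Control (median 0.79) with 4 other ER genes lower. Members higher in Reloading numbered 20 to 24 against Unloading and 26 to 30 against Control when 1 library was left out. Lower members numbered 0 to 1 in both, 0 against Control with no filter and without the libraries with skin transcripts, and other ER genes lower against Unloading numbered 10 to 17. For Unloading against Control, leaving out 1 library gave 0 to 2 members higher, 0 to 1 lower, and 0 to 9 other ER genes higher and 0 to 2 lower. There the counts of members were 2 higher and 0 lower with no filter and with DESeq2, and 0 and 0 without the skin transcript libraries, and those of other ER genes 13 and 2 with no filter and 5 and 0 without those libraries. The replicate block by title number gave 24 higher and 1 lower member in Reloading against Unloading, 30 and 1 in Reloading against Control, and 0 lower members and 0 lower other ER genes in Unloading against Control. By description number the block gave 25 higher and 0 lower members in Reloading against Unloading, the fall of Ssr3 not passing (log2 -0.25, adjusted p = 0.0559) and the rise of Serp1 passing (log2 0.33, adjusted p = 0.0476), and 2 lower members (Sec61b and Ssr2) and 2 lower other ER genes in Unloading against Control. A left-out Unloading library leaves 1, whose spread was taken from the other groups. The causes were not tested. Low counts limit Derl3, Ero1b and Sdf2l1.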
